A study of Mus musculus with 8 samples.

Results

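The genes described here are the NF-kB subunits Nfkb1, Nfkb2, Rela, Relb and Rel and their feedback inhibitors and cofactor Nfkbia, Nfkbib, Nfkbie, Tnfaip3 and Bcl3. They were chosen by name, with earlier results of these data known, and the rule uses no measured value: every array probe whose gene name in the scanner files is one of these 10 was taken, which gave 14 probes for 10 of the 27962 gene names on the array. RNA came from primary smooth muscle cells, the contractile cells of the artery, grown from aortas of C57BL/6 mice in medium with serum. The 4 AngII cultures received 1 µM angiotensin II, a peptide hormone that contracts arteries. The 4 AngII+CsA cultures received the same 1 µM angiotensin II with 200 ng/ml cyclosporin A (CsA), which inhibits calcineurin, the calcium-dependent phosphatase that activates NFAT factors. The design text calls the cultures of a condition independent. Cells without angiotensin II were not analysed here, so the effect of angiotensin II was not measured.

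NF-kB factors are dimers of Rel-family proteins that IkB proteins hold in the cytoplasm of resting cells. Signals from cytokine receptors and other surface receptors activate the IKK kinases, IkB is degraded, and the freed dimers enter the nucleus and switch on inflammatory genes. Among the genes they switch on are several that act back on the pathway, such as Nfkbia, which encodes IkB-alpha, and Tnfaip3, which encodes the ubiquitin-editing enzyme A20. In vascular smooth muscle the pathway is known for its part in chemokine and adhesion molecule expression.

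Promoter stretches of 4 members are shown first because they hold a match to the kappaB consensus in genes that feed back on the pathway. The sequences are from RefSeq, build GRCm38.p6, are written 5′ to 3′ on the strand of the gene, and lie wholly before an annotated start. Capitals mark matches to the kappaB consensus, a 10-base motif searched on both strands, with overlapping matches joined.
Nfkb2: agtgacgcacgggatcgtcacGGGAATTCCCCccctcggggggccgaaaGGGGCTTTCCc
Nfkbia: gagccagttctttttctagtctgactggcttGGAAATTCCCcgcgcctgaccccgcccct
Nfkbie: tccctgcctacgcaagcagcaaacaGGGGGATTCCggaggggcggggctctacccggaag
Tnfaip3: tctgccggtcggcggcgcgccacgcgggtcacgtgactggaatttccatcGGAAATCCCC
The Nfkb2 stretch is chr19:46304677-46304736 on the plus strand and the Nfkbie stretch is chr17:45555569-45555628 on the plus strand. The Nfkbia stretch is chr12:55492648-55492707 and the Tnfaip3 stretch is chr10:19015413-19015472, both on the minus strand.

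In windows from 250 bases before to 50 bases after the annotated starts, 6 of the 8 members found in the promoter table held at least 1 match: Nfkb2, Rel, Nfkbia, Nfkbie, Tnfaip3 and Bcl3. Rela and Nfkbib held none. Tnfaip3 held its matches at the start whose stretch is shown, and the window of its other annotated start held no match. Over the whole table, 5.14% of 27025 genes and 4.51% of 32851 windows held one. NFAT proteins bind the core GGAAA, which can lie inside a kappaB match: matches that contained it on one strand or the other were found in 4 members, Nfkb2, Rel, Nfkbia and Tnfaip3. That core is common: 61.3% of all windows held it somewhere, inside a kappaB match or not. Counted in that way by gene, 6 of the 8 members and 64.4% of all genes held it. The share of all genes with the core inside a kappaB match was not computed. A match describes these letters and is not evidence of binding, which was not measured.

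Of the 14 probes, 10 probes of 9 genes were tested, having a signal marked as well above background on 4 or more of 8 arrays. The tested probe of Nfkb1 lies at chr3:135379090-135379151, and those of Rela at chr19:5542438-5542497 and chr19:5541942-5542001. The Nfkb2 probe lies at chr19:46208290-46208429, the Relb probe at chr7:17288747-17288806 and the Bcl3 probe at chr7:17490887-17490946. Nfkbia was read at chr12:53415998-53416493, Nfkbib at chr7:25693284-25693965, Nfkbie at chr17:43692455-43692514 and Tnfaip3 at chr10:18722874-18722933. These positions are those of the scanner files, in build mm7. An annotation of that build was not used here, so exons and untranslated regions were not assigned. The sequences of 3 of the tested probes are given, and each of these 60-base probes has at least 1 reading frame without a stop codon. The 60 bases of the Nfkb2 and Nfkbia probes span 140 and 496 bases of the genome.
Nfkb2 probe: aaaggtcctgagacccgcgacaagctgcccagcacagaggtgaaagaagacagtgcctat
Nfkbia probe: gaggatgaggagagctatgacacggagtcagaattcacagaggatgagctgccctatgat
Rela probe with 10 spots: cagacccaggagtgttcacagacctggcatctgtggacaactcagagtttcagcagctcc

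The deposited intensities were put on a log2 scale, with the 75th percentile of each array set to 0, so a value of 0 is the signal of the probe at that percentile and a difference of 1 is a doubling. Between 42.8% and 51.7% of 43379 spots per array were well above background. Arrays with the same replicate number in the labels share a slide and a scan, 1 slide for each of 4 numbers, and were treated as pairs. After subtraction of the group means, same-numbered arrays correlated with each other at r = 0.702 to 0.861, and arrays of unlike number at -0.759 to 0.251. Levels are compared only within a probe, since brightness differs between probes for reasons other than transcript abundance. With 4 arrays in a group, their number sets how precise a value can be.

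Of 8 smooth muscle markers, 6 (Acta2, Cnn1, Lmod1, Myh11, Smtn and Tagln) were well above background on all 8 arrays. The endothelial markers Cdh5, Pecam1 and Tie1 and the macrophage markers Adgre1, Aif1 and Itgam were so on none, whereas the macrophage-expressed genes Cd14, Cd68 and Csf1r were on all 8. The fibroblast genes Col1a1, Dcn, Lum, Pdgfra and Pi16 were also above background on all 8 arrays. The labels give no purity for the cultures, and these genes are not exclusive to 1 cell type.

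A known response to the drug was checked first. Rcan1, a calcineurin inhibitor whose transcription is driven by calcineurin and NFAT, read 4.55, 4.45, 5.69 and 5.35 with AngII in replicates 1 to 4. With AngII+CsA it read 2.15, 2.32, 3.68 and 2.83. All 4 arrays with CsA lay below all 4 without, and the mean fell from 5.01 ± 0.61 to 2.75 ± 0.69 (SD, n = 4 each), a 4.79-fold drop with adjusted p = 0.0214 by limma with Benjamini-Hochberg adjustment and replicate number as a block. That call was lost when the block (adjusted p = 0.9999), any 1 replicate or the filter on dim probes was left out. A second Rcan1 probe was lower by 2.84-fold without passing the threshold (adjusted p = 0.241, limma).

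None of the 10 tested probes of the NF-kB subunits and inhibitors changed with CsA at an adjusted p under 0.05, and none had an unadjusted p under 0.05 in limma with replicate number as a block. The fit on the groups alone also gave 0 by either measure. With normexp background correction, with no filter on dim probes or with probe GC removed, 1 member probe had an unadjusted p under 0.05 in limma. It was the Nfkb2 probe in each of these settings. Over all 19529 probes tested, 2 probes (0.0102%) passed the threshold, for Rcan1 and Serpinb1c, and 975 (4.99%) had an unadjusted p under 0.05. The mean difference was above 0 for 9 member probes and below it for 1, Nfkbia, where 45.5% of all probes were above 0. The differences ran from -0.04 to 0.25 on the log2 scale, with a median of 0.11 beside -0.02 for all probes. In size alone the member probes did not stand apart: the median absolute difference was 0.109 for the members and 0.109 for all probes. The 95% intervals reached from -0.34 to 0.77 at their extremes, which is 1.27-fold lower to 1.70-fold higher. In the fit with the block, no interval therefore reached a halving or a doubling, and 6 of the 10 lay within ±0.5. In the fit on the groups alone the intervals reached from -1.42 to 1.59, past both a halving and a doubling. No tested member probe had groups that did not overlap, a pattern seen in 0.395% of probes. None of the tested member probes was lower in all 4 pairs, as 9.47% of probes were.

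**Figure D1:**
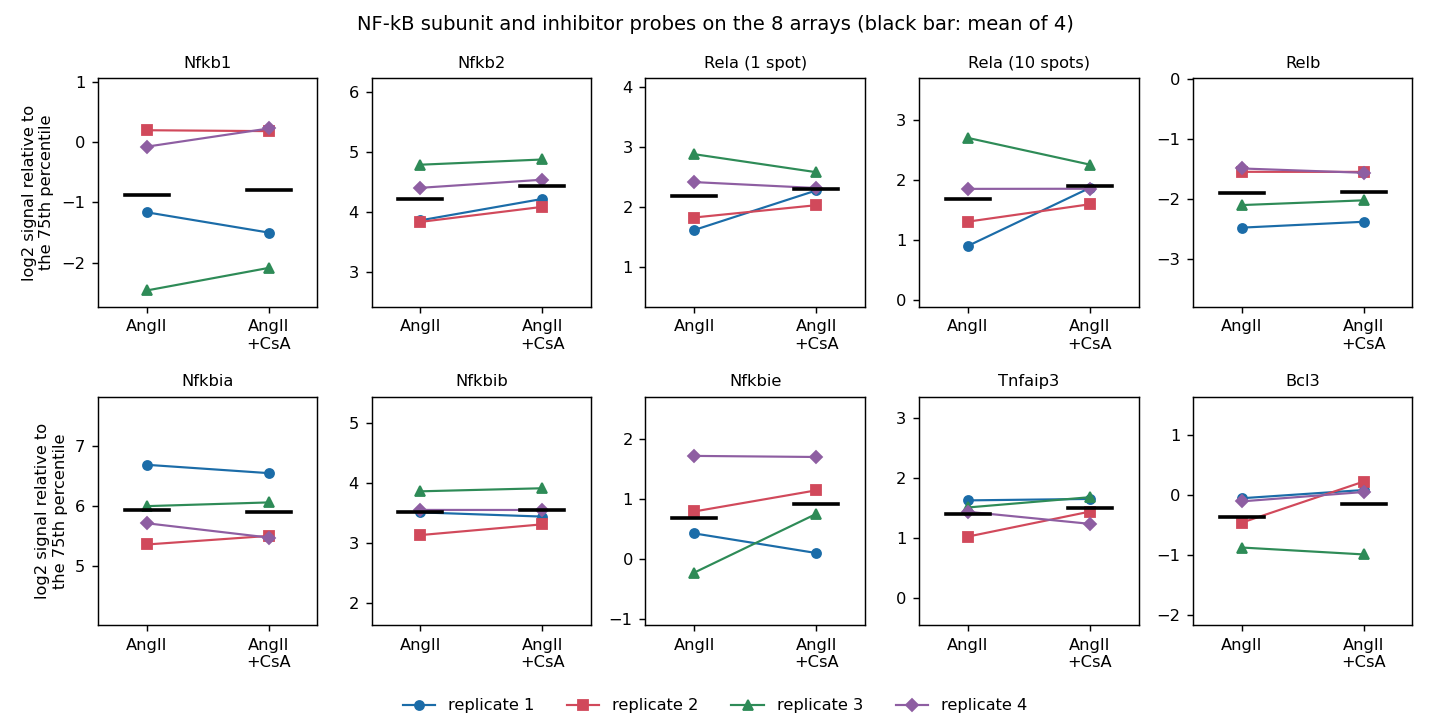
Log2 signal above or below the 75th percentile (vertical axis, spanning the same log2 range in every panel) for each tested probe in the AngII and AngII+CsA cultures, with 1 line per replicate number and a black bar at the mean of 4. Lines are mostly flat beside the distance between them: the replicates of Nfkb1 spread over several log2 units while its group means are -0.87 and -0.79.

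Rela encodes p65, the transactivating subunit of the classical NF-kB dimer, and had 2 probes. The probe printed 10 times on each array read 0.90, 1.31, 2.70 and 1.85 with AngII in replicates 1 to 4. The same probe read 1.87, 1.60, 2.26 and 1.85 with AngII+CsA. It was higher with CsA by 0.97 in pair 1 and by 0.29 in pair 2, lower by 0.45 in pair 3 and nearly level in pair 4. The single-spot probe read 1.62, 1.83, 2.89 and 2.42 with AngII and 2.28, 2.04, 2.59 and 2.32 with AngII+CsA. Both Rela probes were thus higher with CsA in pairs 1 and 2 and lower in pair 3. The SD over the 10 spots of an array, which covers the spread within an array and not that between cultures, was 0.040 to 0.087. Means differed by 0.20 (95% interval -0.34 to 0.75, adjusted p = 0.940, limma) for the 10-spot probe and by 0.12 (-0.30 to 0.53, adjusted p = 0.950) for the other. Without replicate 1 both differences turned negative, at -0.05 and -0.07.

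Nfkb1 encodes p105, the precursor of the p50 subunit and itself an IkB-like inhibitor. Its tested probe, also printed 10 times, read -1.16, 0.20, -2.47 and -0.07 with AngII and -1.50, 0.19, -2.09 and 0.23 with AngII+CsA. The groups covered nearly the same range, and CsA was the higher array in 2 pairs and the lower in 2. The difference was 0.08 (95% interval -0.28 to 0.44, adjusted p = 0.957, limma). It had the opposite sign, -0.01, after normexp background correction and -0.02 without replicate 3. The other 3 Nfkb1 probes were not tested: 2 of them were well above background on 0 of 8 arrays and 1 of them on 1 array, with AngII. Their mean values lay between -5.75 and -4.44 in either group.

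Nfkb2 encodes p100, the precursor of p52 in the alternative pathway and an inhibitor of RelB. Its probe read 3.87, 3.84, 4.79 and 4.41 with AngII and 4.22, 4.09, 4.88 and 4.54 with AngII+CsA. Nfkb2 was the one member higher with CsA in all 4 pairs, by 0.36, 0.25, 0.09 and 0.14, although the groups overlapped. Of all probes, 4.98% were higher in every pair. The mean difference of 0.21 (95% interval -0.05 to 0.47) corresponds to 1.16-fold and did not pass (adjusted p = 0.927, limma). With normexp background correction it was 0.34 (adjusted p = 0.157, limma). An exact two-sided sign-flip permutation test over the 4 pairs gave p = 0.125, the smallest value that 4 pairs can give.

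Relb encodes the transactivating partner of p52. It read -2.48, -1.55, -2.10 and -1.49 with AngII and -2.38, -1.55, -2.03 and -1.57 with AngII+CsA. No pair differed by more than 0.10, the tightest pairs of any tested member probe. The interval for the difference of 0.03 ran from -0.22 to 0.27 (adjusted p = 0.980, limma), and with normexp background correction the difference was -0.10. Rel, the gene of c-Rel, exceeded background clearly on none of the AngII arrays and on 1 of 4 with CsA, so its level could not be compared.

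Nfkbia, the gene of IkB-alpha and the best known feedback target, read 6.69, 5.36, 6.00 and 5.71 with AngII. With AngII+CsA it read 6.55, 5.50, 6.06 and 5.47. The order of the replicates was kept except between numbers 2 and 4, and CsA was higher in 2 pairs and lower in 2. The means of 5.94 ± 0.56 and 5.89 ± 0.51 (SD, n = 4 each) differed by -0.04 (95% interval -0.32 to 0.24, adjusted p = 0.972, limma), an interval of 1.25-fold lower to 1.18-fold higher. The sign was not stable: it was 0.08 with normexp background correction and 0.02 without replicate 4.

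Nfkbib encodes IkB-beta, an inhibitor that NF-kB induces less readily than IkB-alpha. It read 3.50, 3.13, 3.85 and 3.54 with AngII and 3.43, 3.30, 3.91 and 3.54 with AngII+CsA, and no pair differed by more than 0.18. Its difference was 0.04 (-0.21 to 0.29, adjusted p = 0.972, limma) and -0.01 without replicate 2. Nfkbie encodes IkB-epsilon and read 0.43, 0.79, -0.23 and 1.72 with AngII. With AngII+CsA, Nfkbie read 0.10, 1.15, 0.75 and 1.70. The CsA array was higher by 0.98 in pair 3 and lower by 0.33 in pair 1. The mean difference was 0.25 (95% interval -0.27 to 0.77, adjusted p = 0.933, limma), 0.003 without replicate 3 and 0.438 without replicate 1.

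Tnfaip3, the gene of A20, read 1.63, 1.03, 1.51 and 1.44 with AngII and 1.65, 1.44, 1.68 and 1.24 with AngII+CsA. With CsA, 3 pairs were higher and 1 was lower, and the largest pair difference was 0.42, in pair 2. The mean difference was 0.10 (-0.22 to 0.42, adjusted p = 0.943, limma) and was -0.002 without replicate 2. Bcl3 encodes a nuclear IkB protein that acts as a cofactor of p50 and p52 dimers. It read -0.05, -0.46, -0.87 and -0.10 with AngII and 0.09, 0.23, -0.99 and 0.05 with AngII+CsA. Pair 2 was higher by 0.69 and the others differed by 0.16 at most. Its difference was 0.22 (-0.15 to 0.58, adjusted p = 0.930, limma) and was 0.059 without replicate 2 and 0.326 without replicate 3.

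**Figure D2:**
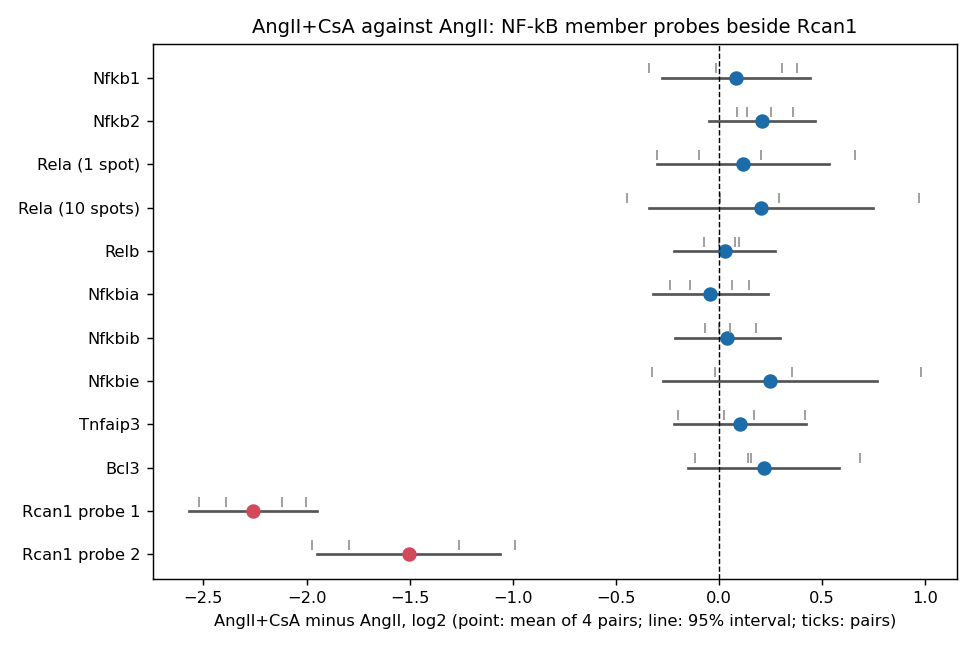
Mean difference AngII+CsA minus AngII on the log2 scale (horizontal axis) for each tested member probe (blue) and both Rcan1 probes (red), with 95% intervals from limma with replicate number as a block and ticks for the 4 pairs. Every member interval includes 0, and the highest bound is 0.77, for Nfkbie, whereas the first Rcan1 probe lies at -2.26.

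Member signals varied more from one replicate number to another than between AngII and AngII+CsA. Of the 10 probes, 7 differed between replicate numbers in limma's moderated F test with Benjamini-Hochberg adjustment: Nfkb1, Nfkb2, Relb, Nfkbia, Nfkbib, Nfkbie and Bcl3. This share is near the background, since 66.6% of all probes passed the same test. Without replicate 3 the count was 4, where 52.2% of all probes passed, and without replicate 1 it was 9, where 61.2% did. The range between the lowest and the highest pair mean had a median of 0.924 over the members and 0.924 over all probes. That range was larger than the largest pair difference for 9 of the 10 member probes. The share of all probes with this pattern was not computed, so whether the count is particular to the members is not known. Whether the differences between replicate numbers belong to the cultures or to the slides cannot be told apart.

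Nfkb1 varied most, over a range of 2.47 (5.56-fold, adjusted p = 0.0017 by limma's moderated F test), and 3.28% of all probes had a larger range. It was lowest in replicate 3, by 1.45 below its own mean, and highest in replicate 2. The SD over the 10 Nfkb1 spots on an array was 0.059 to 0.261. The probe holds 23.3% G and C bases. The 79 tested probes with at most 25% had median deviations of -0.31, 0.19, -0.27 and 0.33 in replicates 1 to 4. These have the same signs as those of Nfkb1 (-0.50, 1.03, -1.45 and 0.91). In the wider class of 2492 tested probes with at most 35%, the median deviations were 0.24, 0.02, -0.10 and -0.18. Those of replicates 1 and 4 are opposite in sign to Nfkb1. With a fit that removed probe GC from each array, 5 member probes passed, Nfkb1 among them, and 60.1% of all probes did. The cause of the Nfkb1 range was not tested. Tnfaip3 varied least, over 0.41 (1.33-fold), and did not pass (adjusted p = 0.204, limma's moderated F test).

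The members did not rise and fall together. Nfkb2, Nfkbib and both Rela probes were highest in replicate 3, by 0.35 to 0.69 above their means, where Nfkb1, Nfkbie and Bcl3 were lowest. Nfkbia was highest in replicate 1, by 0.70, and lowest in replicate 2, a range of 2.28-fold (adjusted p = 0.0060). Tnfaip3 and Bcl3 were also highest in replicate 1, while Relb was lowest there and Nfkbie nearly so. Nfkbie spanned 2.73-fold and was highest in replicate 4, as was Relb. The smooth muscle markers also differed between replicates: their summed signal, relative to the 75th percentile, was 256, 719, 1290 and 1240 in replicates 1 to 4. Their part in the member differences was not tested.

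**Figure D3:**
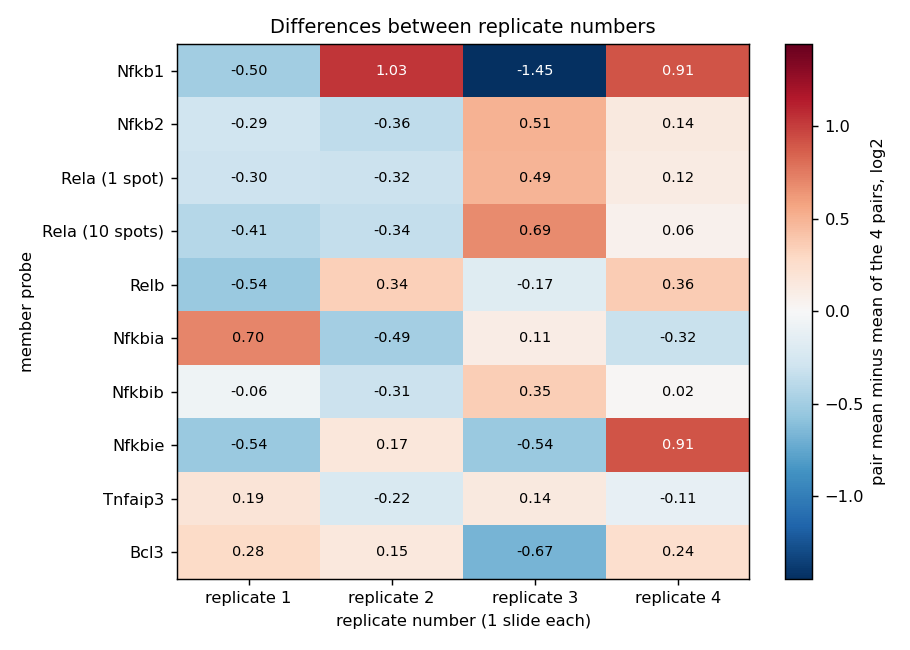
Pair mean minus the mean of the 4 pairs, in log2 units (colour and printed value), for each tested member probe (rows) and replicate number (columns). Nfkb1 is -1.45 in replicate 3, where both Rela probes and Nfkb2 are at their highest, and Nfkbia is 0.70 in replicate 1.

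The genes whose signal followed Nfkbia most closely over the 8 arrays were Rhebl1 (Pearson r = 0.981), Smoc2 (r = 0.974) and Tpst1 (r = 0.974). For Tnfaip3 they were Dtwd1 (r = 0.965), Nit1 (r = 0.947) and Rgs17 (r = 0.937). These were the highest values among all named genes. The arrays fall into 4 pairs, so the likeness mixes differences between replicate numbers with those inside pairs. For Tnfaip3 the 2 were of like size: its pair means ranged over 0.41, and its largest pair difference was 0.42. None of these 6 genes is on the NF-kB lists used here.

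No gene elsewhere in the pathway passed the threshold for CsA (limma with Benjamini-Hochberg over all probes). With 1 probe per gene, 14881 genes were measured, 2 of them (0.0134%) passed, 5% had an unadjusted p under 0.05, and the median difference was -0.03. Of all these genes, 4.79% were higher with CsA in all 4 pairs and 10.2% were lower in all 4. Among ligands and receptors, 0 of the 10 tested, of 21 listed, passed in either direction and the median was -0.10. The toll-like receptor gene Tlr2 had the smallest p, with 4.43 ± 0.59 under AngII, 4.85 ± 0.51 once CsA was added (SD, n = 4 each) and a higher value in 4 of 4 pairs (difference 0.42, adjusted p = 0.927, limma). Tnf, the gene of the cytokine TNF, was above background on 2 of 4 arrays in each group, and its difference was -0.22.

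Adaptors and signalling enzymes (25 listed) gave 0 of 21 in either direction with a median of 0.04. Ube2n, which encodes a ubiquitin-conjugating enzyme for the chains that recruit the TAK1 complex, had a difference of -0.29 and was lower in 4 of 4 pairs. Tab3, a subunit of the TAK1 complex, had 0.38 and was higher in 3 of 4. Of the IKK complex and kinases (11 listed), 0 of 10 passed, the median was 0.05, and the IKK genes Chuk, Ikbkb and Ikbkg differed by -0.05, 0.10 and 0.01; these subunits are named for their role, after their values were seen. Map3k14, the gene of the NF-kB-inducing kinase NIK that starts the alternative pathway, had 0.27 (95% interval -0.01 to 0.54) and was higher in 4 of 4 pairs. Map3k3 had 0.26 (-0.28 to 0.79). Of 18 other inhibitors and cofactors (23 listed) 0 passed, with a median of 0.05. Irak3, which encodes an inhibitor of toll-like receptor signalling, had 0.31 and Tnip1, a partner of A20, had 0.13, both higher in 4 of 4 pairs.

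Known NF-kB target genes (41 listed) gave 0 of 29 past the threshold in either direction, 14 above 0 and 15 below, with a median of -0.04. An unadjusted p under 0.05 was found for 5 with lower values under CsA and for 1, Csf1, with a higher value, against the 5% of all genes. Vcam1, an adhesion molecule for leukocytes, was at 10.06 ± 0.57 with AngII against 9.39 ± 0.83 under the drug (SD, n = 4 each), a difference of -0.67 (95% interval -1.01 to -0.33). Ccl7, a monocyte-attracting chemokine, was at 8.48 ± 0.56 and 7.87 ± 0.79, a difference of -0.60 (-0.92 to -0.28). Both were lower in 4 of 4 pairs, and neither passed (adjusted p = 0.927 each, limma). The others were Il6 (-0.58), Ccl2 (-0.50) and Ccl20 (-0.47), which with Csf1 (0.33) are named after their values were seen. Il6 and Ccl2 were lower in 4 of 4 pairs and Ccl20 in 3. Sod2 (-0.05), Icam1 (-0.07) and Ier3 (0.00), chosen in the same way, gave values near 0. Il6 and Ccl2 respond to other factors besides NF-kB, so the list does not measure NF-kB activity alone.

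Markers of other cell types were measured beside these, and no gene passed. In the endothelial list 0 of 4 tested genes passed and all 4 were below 0, with Vwf at -0.32 and Emcn at -0.36. The summed list signal was 0.881 to 1.09 with AngII and 0.730 to 0.838 with AngII+CsA. Each sum in this paragraph covers every gene of its list on the array, tested or not, and was not itself tested. The endothelial sum covers 9 genes, of which Cdh5, Pecam1 and Tie1 were above background on no array. The macrophage list gave 0 of 3, with Cd68 at 0.21 and Cd14 at -0.19, and sums of 7.42 to 11.9 and 6.73 to 10.9. The fibroblast list gave 0 of 5, with Pdgfra at -0.23 and Pi16 at -0.14, and sums of 1570 to 2270 and 1440 to 2240. The T and B cell list gave 0 of 5, all below 0, with Cd3e at -0.25 and Cd79a at -0.42, and sums of 2.05 to 3.34 and 1.80 to 2.74. Their part in the pathway values was not tested. In the smooth muscle list 0 of 7 passed, with calponin Cnn1 at -1.71 (adjusted p = 0.480, limma) and the myosin heavy chain Myh11 at 0.33.

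**Figure D4:**
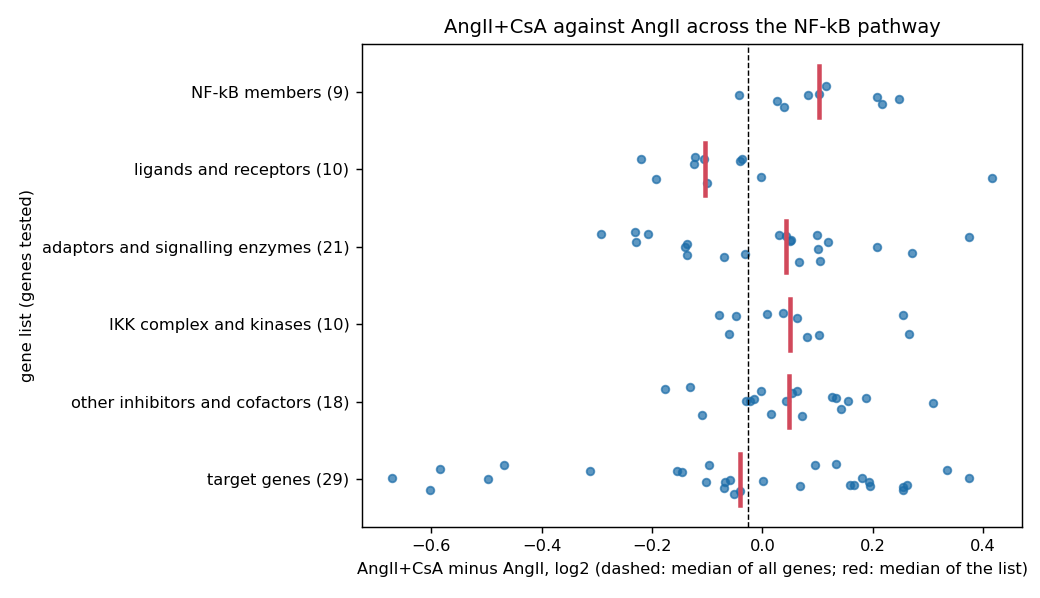
Difference AngII+CsA minus AngII on the log2 scale (horizontal axis) for each tested gene of the 6 NF-kB lists (blue points, spread vertically only to separate them), with the list median in red and the median of all 14881 genes as a dashed line. Most genes lie between -0.3 and 0.3, and the 5 lowest points are the target genes Vcam1, Ccl7, Il6, Ccl2 and Ccl20.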

How the data were processed

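Total RNA of 8 cultures was amplified into Cy3-labelled RNA and hybridised to 1-colour arrays, per the labels' protocols. Per the file headers, arrays of Agilent design 014868 were read under protocol GE1-v5_95_Feb07 by Feature Extraction, version 9.5.3.1. The authors deposited intensities per spot (background-subtracted processed signal, mean signal and local background). A deposited log2 value table of the same arrays, with scale and method unknown (41252 rows, median 3.01 in each column, and ranks that match the arrays' own, Spearman rho of 1.00 to 2 decimals), served as an alternative.

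Values were log2 of the processed signal minus each array's 75th percentile. Control and outlier spots were left out and spots of a probe averaged. Probes well above background on at least 4 of 8 arrays were tested (19529 of 41174). Genes were named by accession for 22951 probes (RefSeq, GRCm38.p6), otherwise as in the files. Tests were two-sided in limma 3.58.1 (R 4.3.3), with replicate number as a block, because the arrays are paired by number and deviate together, and Benjamini-Hochberg adjustment over all tested probes at a threshold of 0.05. Replicate numbers were tested with the moderated F statistic of the same fit. The code was tested on simulated data.

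Named are all member probes, Rcan1, of each list up to 4 genes past the threshold or else the 2 of smallest p, and the 3 genes most correlated with Nfkbia and with Tnfaip3. Further genes are marked in the text as named after their values were seen. Member genes and lists were chosen with earlier results of these data known. Alternatives covered the block, background correction, scaling, filter, outlier spots, choice of probe, variance model, the deposited table, probe GC (chosen after seeing the data) and each replicate left out.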

Additional observations from a re-analysis of the deposited data

Results flagged for a closer look

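Among the 28 groups of 4 arrays examined for the 14 member probes, 1 held an array far from the others: Bcl3 read -0.99 with AngII+CsA in replicate 3, while the nearest of the other 3 arrays was at 0.05. The gap was 0.857 of the range of the group. Chance marks about 5% of groups in this way. The AngII array of the same number was also the lowest of its group, at -0.87.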

How the results depend on the processing

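No member probe and no gene of the pathway lists passed the threshold for CsA under any of the 15 alternatives, and the smallest adjusted p of a member was 0.157, for Nfkb2 with normexp background correction. The median difference of the members ran from 0.058 to 0.196 when each replicate was left out in turn. Without the replicate block 0 members were called, the adjusted p-values were 0.9999 and the intervals reached from -1.42 to 1.59. Of 149 recomputed member differences, 140 kept their sign. The 9 others were Nfkb1 (-0.014), Relb (-0.103) and Nfkbia (0.082) with normexp, Rela (-0.065 and -0.051) without replicate 1, Nfkbib (-0.007) and Tnfaip3 (-0.002) without replicate 2, Nfkb1 (-0.016) without replicate 3, and Nfkbia (0.022) without replicate 4. With 1 replicate left out, the differences ranged from -0.016 to 0.222 for Nfkb1, from -0.065 to 0.255 and from -0.051 to 0.419 for the Rela probes, from -0.105 to 0.022 for Nfkbia, from -0.007 to 0.076 for Nfkbib, from -0.002 to 0.204 for Tnfaip3, from 0.003 to 0.438 for Nfkbie, from 0.059 to 0.326 for Bcl3, from 0.002 to 0.059 for Relb and from 0.158 to 0.248 for Nfkb2. The cause was not tested.

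The count of member probes that differed between replicate numbers was 4 to 9 when 1 replicate was left out, with 4 without replicate 3, for which the cause was not tested. In the same fits 42% to 61.2% of all probes passed. Over all probes, CsA calls ranged from 0 to 8. Normexp gave 5208 probes with an unadjusted p under 0.05 and the reported setting 975. Rel and 3 Nfkb1 probes were too dim to compare.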
